A study of Drosophila melanogaster with 12 samples.

Results

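The genes described here are 197 *Drosophila melanogaster* genes that carry only a CG number as their symbol and whose RNA was low in ovaries with *aramis* RNAi while it was well measured in ovaries of both other genotypes. They were chosen on their input levels. Counts were divided by the total of their library and multiplied by 1000000, the result being called CPM, and a gene was kept if it had at least 5 CPM in all 4 control input libraries and if both *aramis* RNAi input libraries were under 0.5 times the lowest of those 4. Of 17023 gene identifiers counted, 6001 had a CG-number symbol, 2100 of these reached the minimum in the controls, and 197 of the 2100 (9.38%) met the rule. Among genes with another symbol or none, 471 of 5047 (9.33%) met the same rule on levels, so that the share was close to that of the CG-number genes.

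The libraries came from whole ovaries dissected 1 to 3 days after eclosion, for 3 genotypes with the germline driver NosGAL4. NosGAL4 > UAS-tkv expresses the BMP receptor *thickveins* in the germline and fills the ovary with cells that resemble germline stem cells (GSCs). UAS-Dicer2;NosGAL4 > bam RNAi depletes *bag of marbles*, the differentiation factor that cystoblasts (CBs) need, and enriches for CB-like cells. UAS-Dicer2;NosGAL4 > aramis RNAi depletes *aramis*, the DEAD-box helicase gene listed as *ais* in the annotation. UAS-tkv lacks the UAS-Dicer2 transgene that both RNAi genotypes carry, so that transgene cannot be told apart from the rest of the genotype in any comparison with UAS-tkv. Each genotype gave 2 replicates of an input library, from 20% of the lysate, and 2 of a polysome library from the gradient, 12 libraries in all. The labels do not say that replicates came from separate flies, so the p-values below measure the spread between these libraries, which may be technical.

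Germline stem cells divide to renew themselves and to give a cystoblast, which then divides with incomplete cytokinesis into a cyst that enters meiosis. Dividing germ cells need much ribosome production and DNA replication, and many of the proteins involved have long been studied in yeast and human cells while their fly genes kept their CG numbers. A CG number therefore says that the gene had not been named, not that nothing is known of the protein. An mRNA under active translation carries several ribosomes and sediments with polysomes, so the polysome-to-input ratio is a common measure of translation.

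Library totals ran from 3131667 to 15039925 counts. The 197 genes together took 0.625 to 0.886% of the counts in the 4 control inputs and 0.202 to 0.206% in the *aramis* RNAi inputs, and 0.630 to 0.936% in the control polysomes against 0.275 to 0.296% in the *aramis* RNAi polysomes. *ais* itself was at 37.8 and 34.0 CPM in UAS-tkv input, 32.5 and 20.2 CPM with *bam* RNAi input and 6.91 and 9.51 CPM in *aramis* RNAi input, in the direction its label gives. *bam* was at 9.07 and 9.47 CPM in UAS-tkv input, 4.02 and 2.42 CPM with *bam* RNAi, and 0.480 and 0.595 CPM in *aramis* RNAi input, so that it was lower in *aramis* RNAi than in the genotype that targets it. *tkv* was at 271 and 312 CPM, 229 and 131 CPM, and 87.4 and 89.0 CPM in the same order. The *bam* RNAi polysome replicates lay far apart: ribosomal protein mRNAs held 33.0% of the counts in replicate 1 and 9.32% in replicate 2, on either side of the UAS-tkv polysomes at 21.0 and 21.5%. Of 12 germline markers listed, *vas* and *nos* were not matched by symbol. All 10 found, among them *aub*, *zpg* and *krimp*, met the same rule on levels. Their summed input level was 179 and 211 CPM in *aramis* RNAi against 976 to 1764 CPM in the controls. Hemocyte markers (9 found) summed to 4187 and 4316 CPM in *aramis* RNAi input against 541 to 1839 CPM, and muscle sheath markers (9 found) to 33967 and 34528 CPM against 7204 to 22605 CPM. Fat body markers (5 found) summed to 438 and 413 CPM against 80.3 to 306 CPM. Of 10 somatic ovary markers only 6 reached the CPM minimum of the rule, and 1 (*tj*) met the rule. The sums over all 10, 1811 and 1956 CPM in *aramis* RNAi input, lay within the control range of 1106 to 2145 CPM. Eggshell markers (11 found) summed to 53.3 and 90.5 CPM in *aramis* RNAi input, against 266 and 1934 CPM with *bam* RNAi and 6004 and 7264 CPM in UAS-tkv. Only 4 eggshell markers reached the CPM minimum, and all 4 met the rule. Among the hemocyte, muscle sheath and fat body markers 0 met it. The part of these marker levels in the levels of the 197 genes was not tested, and in whole ovaries fewer cells of a type and less RNA per cell cannot be told apart.

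The *aramis* RNAi input mean of the chosen genes was a median 25.6% of the control mean, from 3.54% to 44.2%. In 22 genes it was under 10%, in 74 between 10 and 25% and in 101 above 25%, so that most were reduced rather than lost, and only 8 had a mean under 1 CPM. The genes were of moderate abundance: their control input means had a median of 29.4 CPM and a range of 5.45 to 256 CPM. Level scaling matters for the choice. On CPM the median tested gene differed by -0.39 (log2) between *aramis* RNAi input and the controls, but by only -0.026 after TMM scaling, which balances libraries on the bulk of their genes. With TMM-scaled sizes 105 of the 197 genes still met the rule and no other gene joined them.

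Just inside the threshold, *CG14785* had 3.55 CPM in its higher *aramis* RNAi input against 7.11 CPM in its lowest control, or 49.96%, followed by *CG13992* with 10.1 against 20.2 CPM and *CG2875* with 26.8 against 53.7 CPM. Just outside it, *CG8414* had 22.3 against 44.5 CPM, or 50.2%, followed by *CG32243* with 44.7 against 89.2 CPM and *CG3045* with 8.32 against 16.6 CPM. No gap in the values separated these genes.

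**Figure D1:**
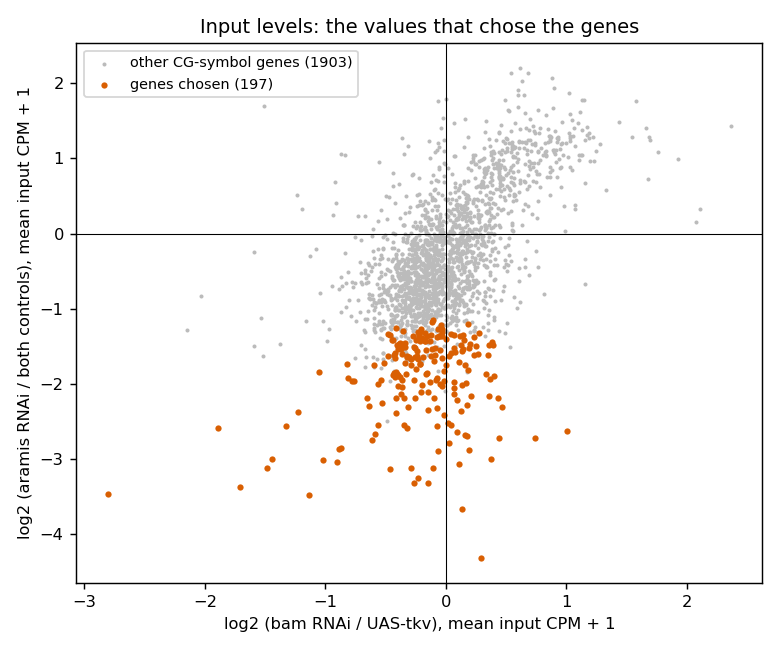
Each point is 1 CG-number gene with at least 5 CPM in all 4 control inputs; the x axis is the log2 ratio of *bam* RNAi to UAS-tkv mean input CPM and the y axis the log2 ratio of *aramis* RNAi to the mean of both controls, 1 CPM being added to each mean. The 197 chosen genes (orange) form the lower edge of the cloud of 2100 genes, and most lie near 0 on the x axis, with a tail to the left.

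Between the controls most of these genes differed little in input. The *bam* RNAi mean was a median 88.0% of the UAS-tkv mean (quartiles 76.0 and 105%), and 58 of the 197 genes were higher in *bam* RNAi. After TMM scaling the median fitted log2 difference between these inputs was -0.086, against 0.039 for all genes tested. The choice shaped this contrast in part, since a gene low in either control was harder to select. Still, 3 genes go against the idea of a loss in *aramis* RNAi alone, since both of their *bam* RNAi inputs were under 0.5 times both UAS-tkv inputs. *CG11674* was at 99.2 and 59.6 CPM in UAS-tkv, 8.62 and 12.3 CPM with *bam* RNAi and 2.21 and 4.16 CPM in *aramis* RNAi. *CG4586*, of the acyl-CoA oxidase family, was at 48.2 and 23.8 CPM, 7.32 and 10.6 CPM, and 3.46 and 2.38 CPM in the same order. *CG6927* was at 78.7 and 45.7 CPM, 20.0 and 16.6 CPM, and 2.30 and 3.72 CPM. The way these 3 genes were picked fixes the order of their genotypes, with UAS-tkv highest, *aramis* RNAi lowest and no overlap. Nothing is therefore read from that order.

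By their means alone 10 genes were under 50% in *bam* RNAi input. Other genes were not counted in this way, so nothing is read from these numbers. At the other end 2 genes exceeded 150%. *CG32971* was at 16.0 and 16.7 CPM in UAS-tkv input, 42.4 and 25.3 CPM with *bam* RNAi input and 2.78 and 3.72 CPM in *aramis* RNAi input. *CG5111* was at 8.72 and 11.7 CPM, 19.8 and 15.7 CPM, and 1.06 and 1.49 CPM. Both were picked for their high *bam* RNAi mean, and the rule itself keeps *aramis* RNAi below the controls. Between *bam* RNAi and UAS-tkv the input values of these 2 genes did not overlap.

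The 10 genes with the highest control input level span the range of responses. *CG10417*, a PP2C-type phosphatase gene on 2R (chr2R:5360331-5363104 of dm6, minus strand), was the most abundant, at 279, 246, 294 and 205 CPM in the control inputs and 95.2 and 102 CPM in *aramis* RNAi input. Its polysome levels were 94.6 and 117 CPM in UAS-tkv, 107 and 187 CPM with *bam* RNAi and 121 and 105 CPM in *aramis* RNAi, and here the *aramis* RNAi values lay within the range of the controls. *CG13096*, which encodes a ribosomal L1 domain protein, showed the same pattern with 122 to 234 CPM in control input, 52.4 and 55.9 CPM in *aramis* RNAi input, 54.9 to 120 CPM in control polysomes and 60.6 and 59.7 CPM in *aramis* RNAi polysomes. *CG9135* (RCC1 repeats), *CG14657* and *CG2247* likewise overlapped between *aramis* RNAi and control polysomes.

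In contrast, *CG4849*, whose human relative EFTUD2 is a GTPase of the U5 snRNP of the spliceosome, was at 114.8, 115.9, 119 and 76.9 CPM in control input and 30.1 and 35.4 CPM in *aramis* RNAi input, and its polysome levels of 97.1 to 139 CPM in the controls and 45.5 and 51.1 CPM in *aramis* RNAi did not overlap. *CG12744*, *CG1622* and *CG6937* behaved in the same way. *CG32814* (chrX:1019795-1026700, minus strand) stood furthest from the others. It was at 86.0, 84.7, 121 and 88.4 CPM in control input and 3.94 and 3.72 CPM in *aramis* RNAi input, and at 33.7 to 104 CPM in control polysomes against 2.93 and 1.92 CPM.

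**Figure D2:**
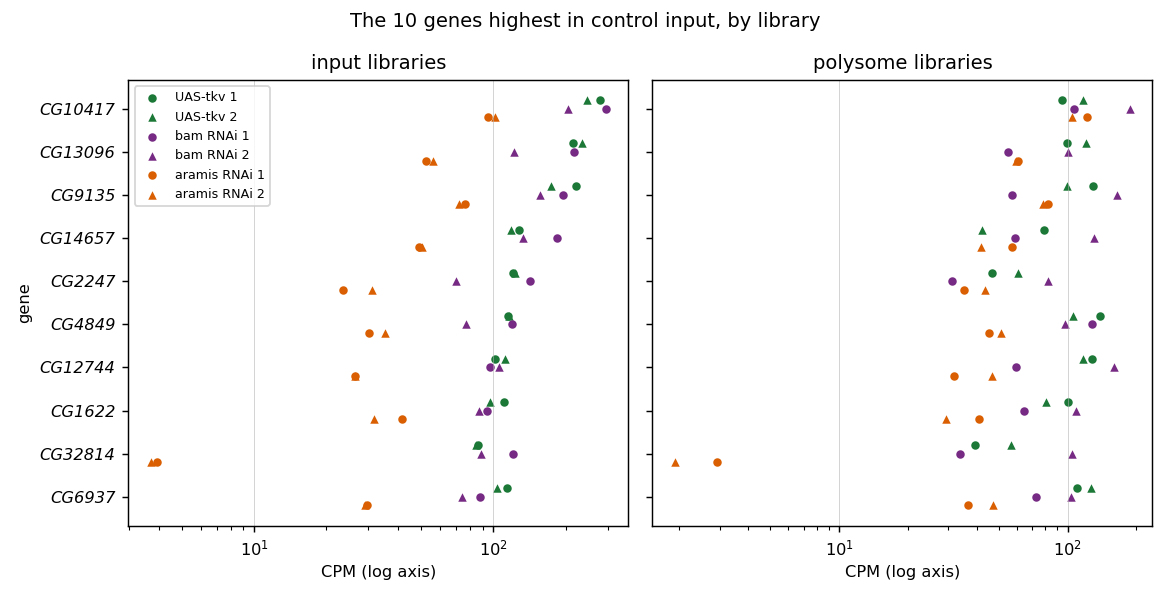
CPM on a log axis for the 10 genes with the highest mean in control input; each point is 1 library, circles and triangles mark replicates 1 and 2, and colors mark genotypes. In input (left) every *aramis* RNAi point lies below every control point, as the choice requires; in polysomes (right) they overlap for *CG10417* (121 and 105 CPM against 94.6 to 187 CPM) and the next 4 genes but not for *CG32814* (2.93 and 1.92 CPM against 33.7 to 104 CPM).

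The lowest *aramis* RNAi to control input ratios belonged to *CG11382*, *CG32814*, *CG6628*, *CG32373* and *CG32483*. *CG11382* was at 19.7 to 23.0 CPM in control input and at 1.06 and 0.446 CPM in *aramis* RNAi input, 3.54% of the control mean. *CG6628* was at 6.43 to 8.19 CPM and at 0.384 and 0.297 CPM, and *CG32373* at 6.32 to 7.58 CPM and at 0.384 and 0.297 CPM. *CG32483* was at 5.97 to 16.5 CPM against 0.288 and 0.743 CPM. Apart from *CG32814* these genes had few counts in *aramis* RNAi, 3 counts being worth 0.288 CPM in the first input library and 0.446 CPM in the second.

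The polysome libraries were not used in the choice, and the genotypes were compared within them. They came from the same lysates as the inputs, so low levels there are not independent of the choice. The spread in this test was also estimated in part from the inputs that chose the genes. A fit to the 6 polysome libraries alone called 80 genes lower than the mean of the controls, the share of all genes in that fit not being given here. Of the 197 genes 125 were lower in *aramis* RNAi polysomes than in the mean of both controls and 0 were higher (edgeR quasi-likelihood test, adjusted p under 0.05 over all 9745 genes tested). Over all genes 13.4% were called lower and 17.7% higher, and among the other 1903 CG-number genes at the CPM minimum 219 were called lower. The median log2 difference of the 197 genes was -1.49 (quartiles -2.26 and -0.90), against 0.085 for all genes tested, with a median standard error of 0.42. All but 3 of the 197 genes were below 0. Summed germline markers were at 253 and 283 CPM in *aramis* RNAi polysomes against 611 to 1319 CPM in control polysomes, and their part in these differences was not tested. The 471 other-symbol genes that met the same rule had a median of -1.49, and 328 of them were called lower.

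Against UAS-tkv alone 124 of the 197 genes were lower (13.6% of all genes), and against *bam* RNAi alone 88 were lower (6.87% of all genes). 81 genes passed in both. The 2 *aramis* RNAi polysome libraries lay below all 4 control polysome libraries in 131 of the 197 genes, against 20.2% of all genes tested. These counts rest on few libraries. The shares of all genes called in the other fits below are not given here. The falls in count can therefore not be read as particular to the 197 genes. Without *aramis* RNAi polysome replicate 1, 46 genes were called lower than the mean of the controls, and without replicate 2, 82 were. Against *bam* RNAi the counts were 5 and 20, and 46 and 90 without *bam* RNAi polysome replicates 1 and 2. Against UAS-tkv 64 were called without *aramis* RNAi polysome replicate 1. A fit to the 6 polysome libraries alone called 80, 78 and 9 genes against the mean, UAS-tkv and *bam* RNAi, and 38 genes were called against the mean of the controls whichever polysome library was left out.

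**Figure D3:**
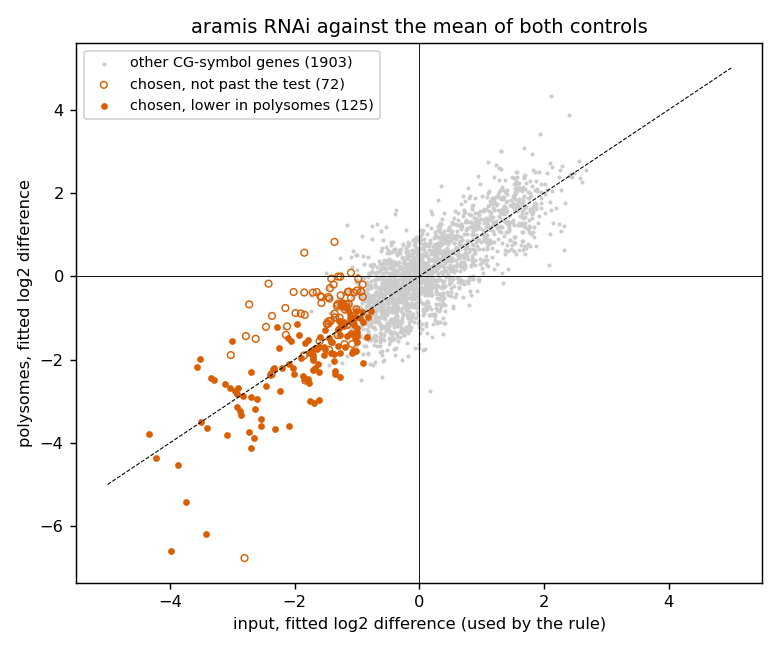
Fitted log2 difference between *aramis* RNAi and the mean of both controls in input (x axis) and in polysomes (y axis), both after TMM scaling. The x axis comes from the input libraries that chose the genes, but the choice was made on CPM. Points are CG-number genes, filled orange points are the 125 chosen genes called lower in polysomes, and open ones are the other 72. The dashed line marks equal differences. The chosen genes lie at the lower left with a median of -1.49 in polysomes, and 3 of them lie above 0.

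Among genes with a mean of at least 5 CPM in control polysomes, the lowest polysome differences were those of *CG6628*, *CG10405*, *CG32483*, *CG32373* and *CG32814*, 4 of which were among the lowest in input as well. *CG32814* was 20.7-fold lower (log2 -4.37 ± 0.41 SE, n = 2 against 4 libraries, edgeR adjusted p = 0.000259). The others had almost no counts left in *aramis* RNAi polysomes. *CG6628* had 1 and 0 counts, which pooled over both libraries is 0.792% of the pooled control level (exact 95% interval 0.0200 to 4.45%, counting error only). *CG10405* had 0 and 2 counts, 0.978% of the control level (0.118 to 3.55%), *CG32483* had 0 and 4 counts, 1.71% (0.465 to 4.41%), and *CG32373* had 5 and 0 counts, 4.72% (1.52 to 11.2%).

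The highest polysome differences belonged to *CG32816*, *CG7544*, *CG14074*, *CG8924* and *CG10417*, none of which passed the test. *CG32816* (chrX:316576-470726) had the widest gene span of the 197, at 154151 bp. Its input was 10.1 to 16.2 CPM in the controls and 4.22 and 3.27 CPM in *aramis* RNAi, but its polysome level was 9.26 and 12.5 CPM in *aramis* RNAi against 2.90 to 9.97 CPM in the controls (log2 0.82 ± 0.49 SE, edgeR adjusted p = 0.21). *CG7544*, related to the human RNA methyltransferase METTL16, was at 10.04 and 22.03 CPM in *aramis* RNAi polysomes and at 10.7, 23.4, 9.97 and 24.5 CPM in control polysomes, with groups that overlapped throughout. *CG8924* was at 17.6 and 18.5 CPM against 11.4 to 35.9 CPM, and *CG14074* at 4.79 and 7.03 CPM against 3.99 to 10.1 CPM. For *CG7544*, *CG14074*, *CG8924* and *CG10417* the sign of the difference changed with the library left out.

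Some of the 197 genes encode proteins whose families are well known from yeast or human cells. The groups below were put together after the values were seen, are not complete and carry no weight as sets. They cover 26 of the 197 genes. Their calls stand beside 63.45% of the 197 genes and 13.4% of all genes called lower in *aramis* RNAi polysomes than in the mean of the controls. The first holds 9 genes of ribosome biogenesis families: *CG13096* (L1 domain), *CG11583* and *CG11920* (Brix domain, with yeast relatives Brx1 and Imp4), *CG1542* (EBP2), *CG6937* (NIFK), *CG7006* (NIP7), *CG12288* (RBM34), *CG3817* (RRP15) and *CG9107* (RRP7). Their *aramis* RNAi input was 15.5 to 42.3% of the controls and their *bam* RNAi input 74.6 to 97.1% of UAS-tkv. In polysomes 6 of the 9 were called lower, with a median log2 difference of -1.21 and a range from -1.80 to -0.54.

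*CG7006* (chr3R:24850627-24851385, plus strand), whose yeast relative Nip7 acts in assembly of the large ribosomal subunit, was at 55.2 to 74.0 CPM in control input and 25.3 and 23.2 CPM in *aramis* RNAi input. In polysomes it was at 162, 179, 173 and 122 CPM in the controls and 38.5 and 52.4 CPM in *aramis* RNAi, 3.49-fold lower (log2 -1.80 ± 0.33 SE, edgeR adjusted p = 0.0028), without overlap. *CG9107* was at 66.8 to 88.9 CPM in control polysomes and 22.4 and 23.0 CPM in *aramis* RNAi polysomes (log2 -1.79 ± 0.28 SE, edgeR adjusted p = 0.0014). *CG12288* had the lowest input share of the group, with 35.5 to 58.0 CPM in control input and 6.72 and 8.77 CPM in *aramis* RNAi input. *CG13096*, *CG11920* and *CG3817* were the 3 that did not pass.

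The second group holds 5 genes of DNA replication and repair families: *CG8142* (a replication factor C subunit, part of the clamp loader), *CG3430* (MCM-binding protein), *CG10336* (TIPIN, of the fork protection complex), *CG11403* (the DDX11 helicase family) and *CG13690* (the catalytic subunit of ribonuclease H2). All 5 were called lower in *aramis* RNAi polysomes, with log2 differences from -2.26 to -1.40. *CG8142* (chrX:17843343-17844704, minus strand) was at 63.2 to 89.2 CPM in control input and 17.0 and 17.2 CPM in *aramis* RNAi input. Its polysome levels were 130, 145, 138 and 96.3 CPM in the controls and 22.9 and 30.02 CPM in *aramis* RNAi, 4.79-fold lower (edgeR adjusted p = 0.00135). Its exons overlap those of a gene on the opposite strand. *CG3430* was at 69.2 to 114.8 CPM in control polysomes and 26.1 and 28.1 CPM in *aramis* RNAi polysomes, and *CG10336* at 30.5 to 83.8 CPM and 10.1 and 15.0 CPM. In neither gene did the groups overlap. *CG10336* was also lower in *bam* RNAi input (27.7 and 25.1 CPM) than in UAS-tkv input (53.2 and 41.2 CPM).

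The third group holds 4 enzymes of fatty acid metabolism, and these differed between the controls: *CG8303* (fatty acyl-CoA reductase), *CG5326* (ELOVL elongase), *CG9747* (desaturase) and *CG4586*. Their *bam* RNAi input was 24.9 to 39.2% of UAS-tkv. They also differed between the UAS-tkv replicates: *CG8303* was at 123 and 35.7 CPM, *CG5326* at 99.96 and 23.4 CPM and *CG9747* at 110.3 and 36.2 CPM in UAS-tkv input replicates 1 and 2. The same replicate was the higher in polysomes, at 132 and 49.7 CPM, 88.0 and 17.7 CPM, and 102 and 24.0 CPM. In *aramis* RNAi input *CG8303* was at 8.45 and 8.77 CPM, *CG5326* at 4.32 and 4.46 CPM and *CG9747* at 3.94 and 5.65 CPM, below both UAS-tkv replicates. Among the 197 genes 8 were over 2 times higher in UAS-tkv input replicate 1 than in replicate 2, and 1 was over 2 times lower. Other genes were not counted in this way, so these numbers are not read as a trait of the 197 genes. The 4 enzymes are 4 of the 8, the others being *CG13992*, *CG7675* (short-chain dehydrogenase), *CG12398* and *CG8924*. Eggshell markers also differed between these input libraries, in both directions: *Vm26Aa* was at 2569 and 385 CPM and *Vm26Ab* at 1435 and 318 CPM, but *Cp38* was at 623 and 2010 CPM and *Cp18* at 8.84 and 435 CPM. Their part in the differences of the 8 genes was not tested.

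In polysomes *CG5326* and *CG4586* were called lower in *aramis* RNAi than in the controls and *CG8303* and *CG9747* were not, with edgeR adjusted p values of 0.063 and 0.11. The controls' spread was wide there, as *CG9747* shows with 102 and 24.0 CPM in UAS-tkv polysomes, 5.08 and 16.0 CPM with *bam* RNAi polysomes and 6.72 and 11.2 CPM in *aramis* RNAi polysomes. The *aramis* RNAi values of this gene overlapped those of *bam* RNAi but not those of UAS-tkv.

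The next group holds 5 C2H2 zinc finger genes, a large family of DNA-binding proteins in flies: *CG17801*, *CG17803*, *CG4854*, *CG4730* and *CG17359*. Only *CG17801* was called lower in *aramis* RNAi polysomes (4.09 and 1.60 CPM against 5.98 to 41.2 CPM, log2 -2.83 ± 0.67 SE, edgeR adjusted p = 0.0096). *CG17803* was at 5.05 to 9.05 CPM in control input, but its polysome levels were 1.13 and 0 CPM in UAS-tkv, 6.34 and 3.92 CPM with *bam* RNAi and 1.85 and 3.51 CPM in *aramis* RNAi, so the *aramis* RNAi values lay between those of the controls. Of 3 RNA-processing genes, *CG4849* and *CG6610* (LSm5, of the Sm-like ring that binds U6 snRNA) were called lower in polysomes and *CG7544* was not. *CG6610* was at 34.4 to 79.0 CPM in control polysomes and 24.5 and 23.0 CPM in *aramis* RNAi polysomes, without overlap.

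Between the control polysomes none of the 197 genes passed the test: 0 were lower and 0 higher in *bam* RNAi than in UAS-tkv by edgeR, where 0.205% of all genes were lower and 0.421% higher. At an unadjusted edgeR p under 0.05 there were 22 of the 197, beside 1385 of the 9745 genes tested. DESeq2 called 5 lower and 1 higher. Its count over all genes is not given here, so nothing is read from the number of these calls. The median log2 difference was -0.23 with a median standard error of 0.44. The 5 genes that DESeq2 called lower were *CG9747*, *CG43156*, *CG4586*, *CG8303* and *CG4743*, of which 3 are the fatty acid enzymes above, and the 1 called higher was *CG17803*. *CG43156* was at 34.8 and 43.6 CPM in UAS-tkv polysomes, 4.71 and 10.4 CPM with *bam* RNAi polysomes and 4.48 and 0.958 CPM in *aramis* RNAi polysomes. *CG4743*, related to the mitochondrial S-adenosylmethionine carrier, was at 36.7 and 38.5 CPM, 11.1 and 20.2 CPM, and 12.3 and 10.9 CPM, while its control inputs lay between 20.8 and 21.7 CPM. For *CG4743* the control genotypes did not overlap in polysomes, and they lay close together in input.

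All 197 genes were annotated as protein coding. The longest coding sequence of each gene had a median of 372 amino acids (quartiles 277 and 518, range 63 to 1893), against 403 for the other CG-number genes at the CPM minimum and 483 for the other-symbol genes that met the rule. Coding sequences under 200 amino acids were found in 28 genes (14.2%, against 16.6% of the other CG-number genes) and over 1000 in 10 (5.08% against 8.99%). The median summed exon length per gene was 1592 bp against 1834 bp, the median gene span 1850 bp against 2332 bp, and both groups had a median of 3 exons in the transcript with the longest coding sequence. A single exon was found in 23 genes (11.7% against 10.8%). These are descriptions of the annotation, and no test was made.

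The longest proteins were those of *CG2861* (1893 amino acids), *CG43867* (1852) and *CG8908* (1626). *CG2861* was at 7.42 to 23.7 CPM in control input and 1.34 and 1.04 CPM in *aramis* RNAi input, and at 0 to 4.24 CPM in control polysomes and 0.926 and 0.319 CPM in *aramis* RNAi polysomes. The shortest were those of *CG31517* (63), *CG43156* (70) and *CG6610* (91). None of the 3 longest passed the polysome test, and of the 3 shortest *CG43156* and *CG6610* did.

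By chromosome arm, 31 genes were on 2L, 32 on 2R, 32 on 3L, 63 on 3R and 39 on X, and 0 on chromosome 4. The shares were 15.7, 16.2, 16.2, 32.0 and 19.8%, against 17.4, 19.1, 19.3, 24.3 and 19.3% of the other CG-number genes, of which 9 were on chromosome 4. The share on 3R was thus higher than in the other CG-number genes and that on 2L, 2R and 3L lower, with no test made. Other-symbol genes that met the rule had 24.6% on 3R and 14.1% on X. The arms did not stand apart in level, the median *aramis* RNAi input being 23.7 to 28.6% of the controls in each, and 19 of 31, 20 of 32, 22 of 32, 40 of 63 and 24 of 39 genes were called lower in polysomes on 2L, 2R, 3L, 3R and X.

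In 5 places 2 of the 197 genes were neighbours in the annotation. Neighbours were not counted among other genes, so nothing is read from this number. *CG14931* (chr2L:11788334-11789475) and *CG14932* (chr2L:11789919-11791011) lie 443 bp apart on the plus strand and were both very low. *CG14931* was at 25.4 to 56.8 CPM in control input and 4.22 and 5.05 CPM in *aramis* RNAi input, and at 34.4 to 71.2 CPM in control polysomes and 4.09 and 2.24 CPM in *aramis* RNAi polysomes (14.8-fold lower, edgeR adjusted p = 0.000259). *CG14932* was at 62.0 to 77.7 CPM and 7.30 and 5.05 CPM in input, and at 134 to 147 CPM and 7.64 and 12.5 CPM in polysomes (14.1-fold lower, edgeR adjusted p = 0.000204). Neither gene overlaps exons of another gene.

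*CG33107* and *CG6937* lie 54 bp apart on 3R on opposite strands, and both were called lower in polysomes, with log2 differences of -2.12 and -1.22. *CG31517* and *CG9926*, also on 3R, overlap by 289 bp on opposite strands, and because the strand setting of the counting is not given in the sources used here their reads may not be told apart. *CG9926* was at 35.6 to 44.5 CPM in control input and 2.69 and 3.42 CPM in *aramis* RNAi input. *CG12782* and *CG13540* on 2R lie 4933 bp apart on opposite strands and were both called lower, by log2 differences of -3.03 and -3.58. *CG11164* and *CG15760* on X lie 125 bp apart on the plus strand, with log2 differences of -1.86 (called) and -2.50 (not called). Of the 197 genes 80 (40.6%) had exons overlapping a gene on the opposite strand, against 38.9% of the other CG-number genes, and 11 on the same strand.

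The polysome ratio was taken as log2 of polysome over input CPM, 1 CPM being added to each. Libraries of the same genotype and replicate number were divided, and the ratio was averaged over the replicates of a genotype. Since input levels chose the genes and are in the denominator, it is given as a description. In UAS-tkv the median over the 197 genes was 0.059 (replicates 0.12 and 0.060), against -0.15 for all genes tested. In *bam* RNAi it was -0.030 against -0.23, but the replicates lay far apart at -0.55 and 0.46, as did those of all genes (-0.76 and 0.31). In *aramis* RNAi it was 0.43 (replicates 0.40 and 0.44) against 0.19. The 197 genes were above all genes by 0.21, 0.20 and 0.25 in UAS-tkv, *bam* RNAi and *aramis* RNAi. All genes tested include genes under the CPM minimum of the rule. The medians of the other 1903 CG-number genes, which reached that minimum, were 0.00012, -0.11 and 0.29 in the same order. Those of the 471 other-symbol genes that met the rule were -0.086, -0.12 and 0.35. Ribosomal protein mRNAs took 5.05 and 8.90% of the counts in *aramis* RNAi polysomes, against 21.0 and 21.5% in UAS-tkv polysomes and 33.0 and 9.32% in *bam* RNAi polysomes, and their part in these shifts of CPM was not tested. With TMM-scaled sizes the medians of the 197 genes were 0.17, 0.049 and 0.22, and the gaps to all genes 0.22, 0.22 and 0.24. With TPM the medians were -0.29, -0.34 and 0.32 and the gaps 0.14, 0.11 and 0.25, so that the sign in UAS-tkv and the size of the gaps depended on the scale.

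**Figure D4:**
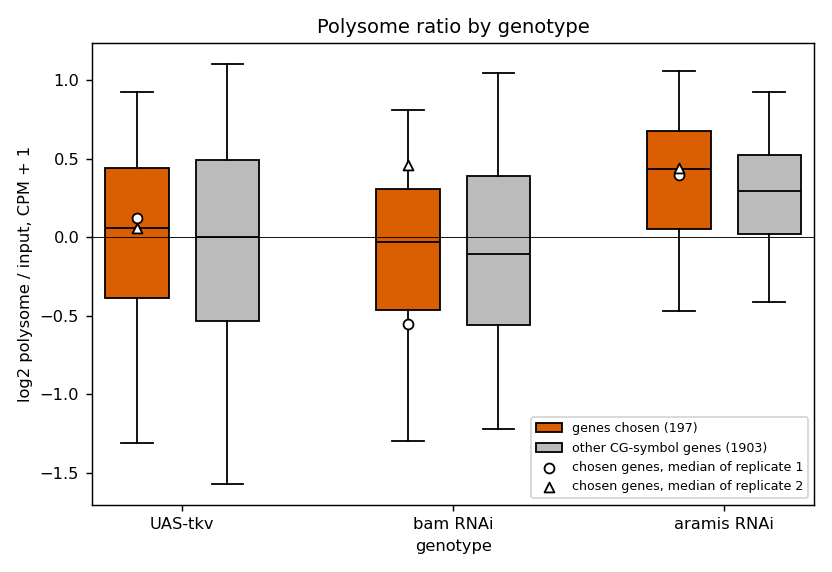
Log2 polysome-to-input ratio (CPM, 1 added) by genotype for the 197 chosen genes (orange) and the other 1903 CG-number genes at the CPM minimum (gray); boxes show quartiles and medians over genes, whiskers the 5th to 95th percentiles, and white circles and triangles the median of the chosen genes in replicates 1 and 2. The *bam* RNAi replicates lie at -0.55 and 0.46, while the *aramis* RNAi replicates lie at 0.40 and 0.44.

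Single genes ranged widely around these medians, from -2.33 to 1.23 in the mean of both controls. The highest ratios were those of *CG7006* (1.23), *CG14545* (1.18), *CG8891* (1.17), *CG11788* (1.09) and *CG14434* (1.02). *CG14545* (chr3R:25850410-25851291, minus strand) was at 100.2, 73.2, 63.9 and 61.0 CPM in control input and 205, 279, 123 and 109 CPM in the same-numbered polysomes. In *aramis* RNAi it was at 8.35 and 6.99 CPM in input and 12.9 and 20.4 CPM in polysomes, where it was 10.1-fold lower than in the controls (log2 -3.33 ± 0.37 SE, edgeR adjusted p = 0.000584). *CG8891*, an inosine triphosphate pyrophosphatase that clears non-canonical nucleotides, was at 57.9 to 68.3 CPM in control input, with little spread, and at 92.2 to 313 CPM in control polysomes. The control polysome values that rank these genes also enter their polysome contrast, so nothing is read from their calls.

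The lowest ratios were those of *CG42238* (-2.33), *CG2861* (-2.09), *CG17816* (-1.83), *CG43675* (-1.59) and *CG12851* (-1.57). *CG17816* was at 24.1 to 50.8 CPM in control input and only 4.91 to 14.2 CPM in control polysomes. In *aramis* RNAi it was at 7.97 and 8.32 CPM in input and 8.03 and 4.79 CPM in polysomes, overlapping the controls. *CG12851* was at 24.9 to 60.0 CPM and 3.84 and 5.20 CPM in input, and at 7.54 to 22.6 CPM and 5.02 and 10.2 CPM in polysomes. *CG43675* was at 5.23 to 5.76 CPM in control input, but was at 10.7, 0, 0 and 0.798 CPM in control polysomes and 0 in both *aramis* RNAi polysome libraries, so no fold is given.

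Shorter coding sequences went with higher ratios in the controls. Over the 197 genes Spearman's rho between coding length and the control ratio was -0.47 (Pearson's r with log2 length -0.43), and over the other 1903 CG-number genes it was -0.53 (r -0.53). The genes share the same 8 libraries and are not independent replicates, so no p is given. In the 66 genes with the shortest coding sequences (63 to 306 amino acids) the median ratio was 0.31, in the middle 65 it was 0.036 and in the 66 longest (465 to 1893 amino acids) it was -0.26. The control polysomes enter both this ratio and the polysome contrast, in which the genes called lower in *aramis* RNAi numbered 48, 46 and 31 in these 3 sets, with median log2 differences of -1.87, -1.40 and -1.24.

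**Figure D5:**
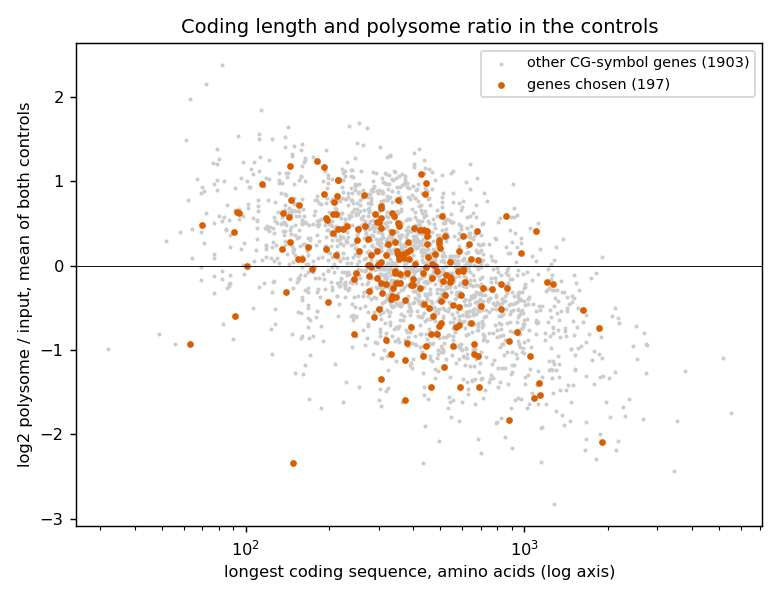
Log2 polysome-to-input ratio in the mean of both controls against the longest coding sequence in amino acids (log axis); each point is 1 gene, orange for the 197 chosen genes and gray for the other 1903 CG-number genes. The ratio declines with length in both sets, with Spearman's rho of -0.47 and -0.53.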

How the data were processed

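Poly(A) RNA libraries of input and polysome fractions were made with a directional kit, the input RNA being taken with TRIzol and the polysome RNA with acid phenol-chloroform. Per the labels, reads were processed with HISAT2 2.1.0 and featureCounts 1.4.6 on dm6, and the authors deposited whole-number counts per gene for each library. The annotation release, strand setting and treatment of multi-mapping reads are not given in the sources used here. Symbols, positions, exons and coding lengths came from Ensembl BDGP6.54, and all 197 genes matched RefSeq under the same symbol.

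The 197 genes, the marker lists and the tests were chosen with earlier results of these data known. Polysome contrasts were tested with edgeR 4.0.16 (R 4.3.3; quasi-likelihood test, 6 group means over 12 libraries, TMM, filterByExpr, 9745 genes, Benjamini-Hochberg adjusted p under 0.05). The 12 libraries share 1 estimate of spread, the inputs that chose the genes included. All 3 *aramis* RNAi contrasts share the *aramis* RNAi libraries. Input contrasts and polysome ratios were not tested. The test was checked on simulated counts, which had 1 spread for all genes and no shift between replicates. That check does not cover replicates as far apart as those of *bam* RNAi polysomes. Alternatives were DESeq2 1.42.0, DESeq2-type size factors, no filter, polysome libraries alone, a replicate block and leaving out each library. In the main test replicate numbers were taken not to pair libraries: same-numbered deviations correlated from -0.37 to 0.46. The polysome ratios divided libraries with the same number. Crossing the numbers cannot change a log ratio averaged over both replicates, so the unchanged medians are no check of the pairing. The ratios of single replicates depend on the numbering.

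Genes were named by rank: the 10 highest in control input, the 5 lowest in *aramis* RNAi to control input, the 5 lowest and highest in polysome difference at 5 CPM or more in control polysomes, the 5 highest and lowest polysome ratios, the 3 nearest the threshold on each side, neighbours, and the 3 longest and shortest proteins. Genes named for their family, their level in *bam* RNAi or the UAS-tkv replicates, or a DESeq2 call were chosen after their values were seen. Sequence-based steps planned for motifs and protein similarity were not run here.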

Additional observations from a re-analysis of the deposited data

How the results depend on the processing

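The number of genes under the rule was 77 with a limit of 0.333 times the lowest control, 539 with 0.7 times, 105 with TMM-scaled sizes and 104 with DESeq2 size factors, against 197, and it ran from 207 to 344 with single input libraries left out, the highest without *bam* RNAi input replicate 2. With the 6 polysome libraries alone the genes called lower in *aramis* RNAi polysomes numbered 80 against the mean of both controls, 78 against UAS-tkv and 9 against *bam* RNAi, where 125, 124 and 88 were called with all 12 libraries. Leaving out single polysome libraries gave 46 to 128, 64 to 139 and 5 to 98. With a replicate block the counts were 108, 111 and 58, and with the numbers crossed in *bam* RNAi, an alternative chosen after seeing the data, 123 and 84 against the mean and *bam* RNAi. Between the control polysomes, where none was called, DESeq2 called 5 lower and 1 higher, as did the fit with no filter on low counts (5 and 1), and leaving out single libraries gave 0 to 3 lower and 0 to 1 higher. The shares of all genes called under these other settings are not given here, and the cause of these changes was not tested.

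The median polysome ratio in UAS-tkv turned from 0.059 to -0.29 with TPM and was 0.17 with TMM-scaled sizes, and 0.060 to 0.12 by single replicates. In *aramis* RNAi it was 0.47 with 0.1 CPM added, 0.32 with TPM and 0.22 with TMM-scaled sizes, and 0.40 to 0.44 by single replicates. In *bam* RNAi it was -0.55 to 0.46 by single replicates.

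Of 65 genes named for polysome levels, 7 reversed sign against the mean of controls. *CG8924* was 0.029 with the replicate block, and *CG14074* and *CG4730* were 0.040 and 0.065 with the crossed block. Leaving out single libraries gave -0.20 to 0.046 for *CG10417*, -0.32 to 0.21 for *CG14074*, -3.01 to 1.75 for *CG2861*, -0.33 to 3.46 for *CG42238*, -1.12 to 1.14 for *CG4730*, -0.69 to 0.43 for *CG7544* and -0.31 to 0.23 for *CG8924*. Under other settings 35 values in 23 genes lost their call and 27 in 9 genes gained one. None of the reversed genes had passed the test. Depth limits the genes near 0 in *aramis* RNAi polysome replicate 2, the shallowest library, where 3 counts are worth 0.958 CPM.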
